A study of Homo sapiens with 9 samples.

Results

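The genes described here are 56 genes of human chromosome 2p13 to 2p11, given as a named list out of 60606 genes in the table, and chosen by the differences of both irradiated lines from U87 cells, since an earlier analysis of the same data had found this stretch of chromosome 2 lower than in U87. In the GENCODE 29 annotation (GRCh38) the list ran from MXD1 at chr2:69897688 to the end of TMEM150A at chr2:85603196, a stretch of 15.71 Mb. With a mean of more than 1 TPM (transcripts per 1000000) over all libraries, 51 of the 56 entered the analysis, and DYSF, PAIP2B, ACTG2, INO80B and MRPL53 at or below 1 TPM are only listed. Since the comparisons with U87 chose the members, their values against U87 are a description with no test, and only the comparison between both irradiated lines, Diff against GSCs, was tested for them.

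The RNA-seq data held 9 libraries, 3 for each of 3 lines of the glioblastoma cell line U87. Parental U87 cells were grown in DMEM with 10% fetal bovine serum and were not irradiated. GSCs were U87-derived cells kept without serum in DMEM/F12 with B27, bFGF and EGF at 20 ng/ml each, and received 13 rounds of 5 Gy. Diff cells were GSCs returned to DMEM with 10% serum to differentiate, from which cells of clonal communities were picked, so that they share the irradiation with GSCs and the medium with U87. For GSCs against U87 the irradiation, the medium and the growth form cannot be told apart. For Diff against U87 the irradiation, the passage through the stem-cell state and the picking of clones cannot be told apart. For Diff against GSCs the serum, the growth factors, the base medium, the growth form and the picking of clones cannot be told apart. The labels do not say whether the replicates were separate cultures, so the p-values below cover only the spread between these libraries, which may be technical. Each library summed to 1000000 TPM, TPM keeps no read depth, and Pearson correlations between libraries of a line ran from 0.956 to 0.971. RN7SL1 took 5.73% to 9.79% of a library and mitochondrial genes 25.9% to 31.8%, the latter highest in a Diff and lowest in a U87 library, and their part in the results was not tested beyond the rescaling given with the alternatives.

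The labelled state of the cells was looked up in its markers. SOX2, a transcription factor of neural stem cells, averaged 0.879 TPM in GSCs, 0.153 TPM in Diff and 0.0383 TPM in U87. PROM1, which encodes the stem cell antigen CD133, averaged 0.507 TPM in GSCs, 0.0236 TPM in Diff and 0.171 TPM in U87. Both stood highest in GSCs and were under 1 TPM in all libraries. FABP7, a fatty acid binding protein of radial glia, averaged 4.91 TPM in GSCs, 2.86 TPM in Diff and 0.731 TPM in U87. NES, an intermediate filament of neural progenitors and the most abundant of these markers, ran the other way, at 33.0 TPM in U87, 22.6 TPM in GSCs and 13.5 TPM in Diff. OLIG2, a transcription factor of glial progenitors, averaged 7.27 TPM in U87, 8.75 TPM in GSCs and 5.37 TPM in Diff. The glial and mesenchymal markers did not move together. In U87, GSCs and Diff in turn, CHI3L1 averaged 107, 557 and 1809 TPM, and VIM 1640, 1214 and 616 TPM. CD44 averaged 405, 427 and 296 TPM, and GFAP 2.29, 0.809 and 0.909 TPM. The neuronal marker TUBB3 averaged 3.74, 4.66 and 5.22 TPM in the same order. PTPRC, which marks leukocytes, was at most 0.137 TPM in any library. EPCAM, which marks epithelial cells, averaged between 1.18 TPM and 1.64 TPM in the 3 lines. PECAM1, which marks endothelial cells, averaged 6.25 TPM in GSCs against 2.77 TPM in U87, and its part in the results was not tested.

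Genes that lie next to each other on a chromosome usually have unrelated functions and separate promoters, and each is transcribed on its own from a nearby start site. The short arm of chromosome 2 carries, among others, the EGFR ligand gene TGFA, the DNA demethylation enzyme gene TET3, the lysyl oxidase gene LOXL3, subunits of the chaperonin and of dynactin, and a series of genes for mitochondrial proteins. Transforming growth factor alpha binds the EGF receptor, a receptor often amplified in glioblastoma, and TET enzymes oxidize methylated cytosine.

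The promoters of 5 members are shown because their genes span the results: TGFA and TET3 stood far below U87, TTC31 was lower and shares its promoter region with a neighbour, and SPR and RETSAT were higher. Each window holds 250 bases before and 50 bases after the RefSeq start on GRCh38.p14, is printed on the gene's strand, and has in capitals every GC box (GGGCGG or its reverse complement CCGCCC) and every E-box (CACGTG). The window of TGFA lies at chr2:70553777-70554076 on the minus strand, that of TET3 at chr2:73984660-73984959 on the plus strand, that of TTC31 at chr2:74482831-74483130 on the plus strand, that of SPR at chr2:72887158-72887457 on the plus strand and that of RETSAT at chr2:85354479-85354778 on the minus strand.
TGFA: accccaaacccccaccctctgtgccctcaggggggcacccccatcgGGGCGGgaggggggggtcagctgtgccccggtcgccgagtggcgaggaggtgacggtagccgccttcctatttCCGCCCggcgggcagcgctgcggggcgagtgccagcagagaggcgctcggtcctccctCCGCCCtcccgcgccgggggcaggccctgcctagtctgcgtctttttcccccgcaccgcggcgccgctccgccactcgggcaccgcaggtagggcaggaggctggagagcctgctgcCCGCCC
TET3: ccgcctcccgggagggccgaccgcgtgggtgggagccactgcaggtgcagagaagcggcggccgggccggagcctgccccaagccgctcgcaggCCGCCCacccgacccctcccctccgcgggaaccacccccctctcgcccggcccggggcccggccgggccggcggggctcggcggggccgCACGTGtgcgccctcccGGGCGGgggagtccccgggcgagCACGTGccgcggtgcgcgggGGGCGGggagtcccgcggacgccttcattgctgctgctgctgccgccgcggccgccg
TTC31: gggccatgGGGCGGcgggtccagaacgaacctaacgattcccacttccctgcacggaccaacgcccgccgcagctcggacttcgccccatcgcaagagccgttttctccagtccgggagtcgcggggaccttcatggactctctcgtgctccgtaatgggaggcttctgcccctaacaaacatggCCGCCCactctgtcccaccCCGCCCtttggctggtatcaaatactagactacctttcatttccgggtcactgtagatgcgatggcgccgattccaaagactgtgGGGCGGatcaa
SPR: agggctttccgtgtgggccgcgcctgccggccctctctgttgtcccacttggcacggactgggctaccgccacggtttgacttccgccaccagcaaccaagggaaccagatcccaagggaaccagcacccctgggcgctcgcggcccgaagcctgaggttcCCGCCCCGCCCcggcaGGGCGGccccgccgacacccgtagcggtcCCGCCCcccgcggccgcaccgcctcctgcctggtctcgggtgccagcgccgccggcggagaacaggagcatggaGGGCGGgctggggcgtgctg
RETSAT: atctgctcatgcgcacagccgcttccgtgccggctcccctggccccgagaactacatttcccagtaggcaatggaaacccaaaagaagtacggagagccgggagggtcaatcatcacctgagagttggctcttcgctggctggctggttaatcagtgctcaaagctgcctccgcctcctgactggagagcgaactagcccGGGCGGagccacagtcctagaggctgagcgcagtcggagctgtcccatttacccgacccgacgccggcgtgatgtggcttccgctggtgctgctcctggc

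Of the 56 members, 52 had a promoter window in the RefSeq table, and MPHOSPH10, EXOC6B, MOGS and STAMBP had no entry. A GC box on either strand was present in 42 of these 52 windows, or 80.8%, against 44.6% of 27305 promoters of all genes. Those 27305 were not filtered by gene type or expression, whereas the members are mostly expressed genes. The sets are thus unlike, and the gap cannot be read as a trait of the stretch. A CCAAT motif was present in 26.9% of members and 35.7% of all promoters, a TATAAA motif in 3.85% and 12.0%, and the E-box CACGTG in 3.85% and 7.43%, counting either strand each time. The median GC content was 63.2% in members and 58.3% in all promoters. The GC box was found in 78.1% of the windows in the middle of the stretch, where most members stood lower than in U87, and in 85.0% of the windows at its ends. These matches describe letters in a window and were not tested.

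The stretch was not lower throughout. Over the 51 members the median difference from U87 on the log2(TPM + 1) scale was -0.66 in Diff and -0.58 in GSCs, beside -0.04 and 0.02 over all 22909 genes tested, and the median ratio of mean TPM to U87 was 0.609 and 0.656. All 3 Diff libraries lay below all 3 U87 libraries in 35 of 51 members, beside 29.0% of all genes, and all 3 GSCs libraries did so in 36 of 51, beside 26.6% of all genes. The opposite order, with every library above U87, held for 8 members in Diff, beside 26.2% of all genes, and for 6 in GSCs, beside 29.3%. The rule used these contrasts, and nothing is read from the counts. Since the libraries are from bulk cultures, fewer cells with a transcript and less of it per cell cannot be told apart.

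**Figure D1:**
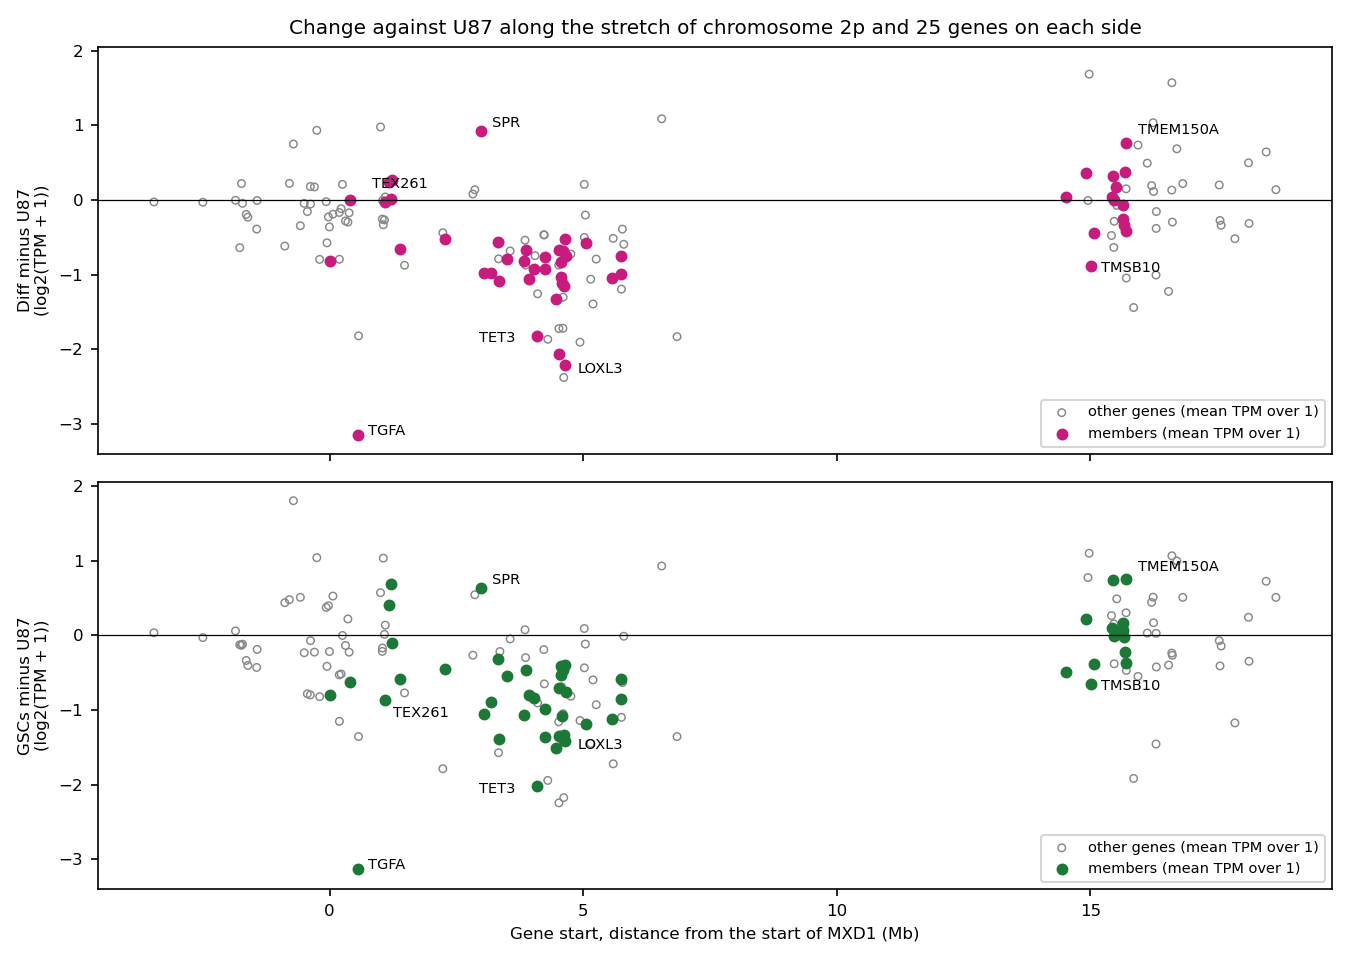
Difference from U87 in log2(TPM + 1) for Diff (upper panel) and GSCs (lower panel) against the distance of each gene start from the start of MXD1 in Mb; filled points are the 51 members with a mean over 1 TPM, open points other genes of the stretch and the 25 nearest such genes on each side. Members of the middle of the stretch lie below 0 except SPR, with a median of -0.88 in Diff and -0.85 in GSCs, while the members at the ends lie on both sides of 0, with distal medians of 0.01 in Diff and -0.62 in GSCs and proximal medians of 0.02 in both.

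Cut by position after the values were seen, the members fell into a distal end of 1.252 Mb from MXD1 to MPHOSPH10, a middle of 4.528 Mb from PAIP2B to GCFC2, and a proximal end of 1.18 Mb from SUCLG1 to TMEM150A. In the middle, 29 of 30 members had every Diff library below every U87 library, beside 29.0% of all genes, and SPR was the exception. In GSCs 28 of these 30 did so, beside 26.6% of all genes. There SPR was higher, and GCFC2 overlapped U87, with GSCs libraries at 4.63, 3.78 and 7.01 TPM and U87 libraries at 6.99, 8.47 and 8.58 TPM. The median ratio to U87 in the middle was 0.524 in Diff and 0.541 in GSCs.

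At the distal end the 7 members had a median difference from U87 of 0.01 in Diff and -0.62 in GSCs. MXD1 and TGFA stood below U87 in both lines. FAM136A and TEX261 stood below U87 in GSCs and overlapped U87 in Diff. Every library was thus below U87 in 28.6% of the 7 in Diff and in 57.1% in GSCs, beside 29.0% and 26.6% of all genes. At the proximal end the 14 members had medians of 0.02 in Diff and 0.02 in GSCs. Near the shares of all genes (29.0% and 26.6%), 4 members (28.6%) in each line had all libraries below U87. These were TMSB10, KCMF1 and RNF181 in both lines, with GGCX in Diff and SUCLG1 in GSCs. The description of the stretch as lowered in irradiated lines did not hold for every member, and both ends held members wholly above U87.

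The step between neighbouring members over 1 TPM was short on the distal side. MPHOSPH10 at the distal end had differences from U87 of 0.26 in Diff and -0.11 in GSCs. ZNF638, whose start is 0.1265 Mb beyond the end of MPHOSPH10, had -0.66 and -0.59. PAIP2B, which lies between them and is under 1 TPM, stood below U87 in Diff and above it in GSCs. On the other side, GCFC2 had -0.75 and -0.58, and the next member, SUCLG1, came after a gap of 8.713 Mb with 0.04 and -0.49. Only 2 genes over 1 TPM, LRRTM4 and RN7SKP203, lay in that gap.

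Genes of the same stretch that are not on the list gave a like picture, again as a description. The 56 other genes over 1 TPM inside the stretch had median differences from U87 of -0.51 in Diff and -0.41 in GSCs. Among them, the 33 in the middle had medians of -0.79 and -0.77. Of these, 24 of 33 lay wholly below U87 in Diff and 20 of 33 in GSCs, beside 29.0% and 26.6% of all genes. Wholly above U87 were 0 in either line, beside 26.2% and 29.3% of all genes. All 11 protein-coding genes of the middle that are not on the list averaged below U87 in both lines. Some passed the filter mainly through U87, such as TLX2 at 4.78 TPM in U87, 0.287 TPM in GSCs and 0.106 TPM in Diff. With no filter, which adds genes near 0, the medians of the other genes of the stretch were -0.24 in Diff and -0.13 in GSCs. Nothing is read from these counts. MTHFD2, a mitochondrial enzyme of one-carbon metabolism, averaged 22.5 TPM in U87, 5.10 TPM in GSCs and 5.44 TPM in Diff. HK2, the hexokinase that starts glycolysis, averaged 194 TPM in U87, 87.6 TPM in GSCs and 51.02 TPM in Diff. The 25 nearest genes before the stretch had medians of -0.04 in Diff and -0.13 in GSCs, and the 25 after it had 0.13 and -0.07.

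**Figure D2:**
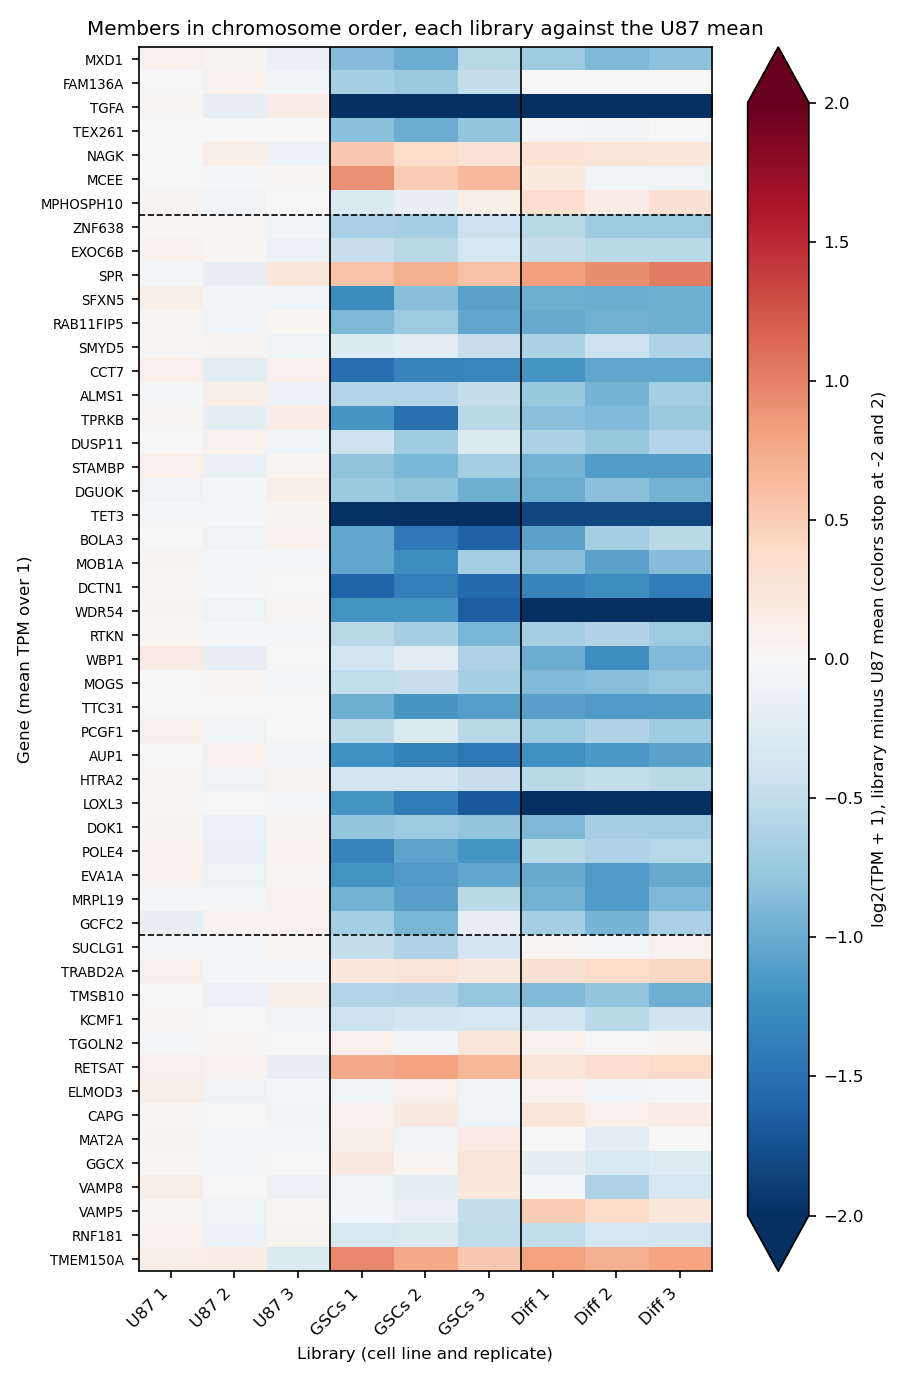
Each of the 51 members (rows, in chromosome order) in each of the 9 libraries (columns) as log2(TPM + 1) minus the mean of the U87 libraries; blue is below and red above U87, colors stop at -2 and 2, and dashed lines part the distal end, the middle and the proximal end. The middle rows are blue in all 6 libraries of the irradiated lines except SPR and, faintly, single libraries such as GSCs replicate 3 of GCFC2.

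Among the ligand and signaling genes, TGFA showed the widest gap to U87 of all members in both lines. It stood at 36.6, 31.8 and 39.7 TPM in the U87 libraries, at 3.10, 2.42 and 4.27 TPM in GSCs and at 3.73, 2.81 and 2.97 TPM in Diff. Every library of both irradiated lines lay far below every U87 library, and the irradiated lines overlapped each other. The difference from U87 was -3.15 in Diff and -3.14 in GSCs, and between Diff and GSCs it was -0.02 ± 0.17 (SE), with an adjusted p of 0.956 by limma. TGFA-IT1, a transcript within the TGFA gene, averaged 3.18 TPM in U87, 0.755 TPM in GSCs and 0.211 TPM in Diff, whereas PCBP1 on the distal side averaged 72.4, 50.4 and 65.3 TPM.

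The other 3 signaling members lie in the middle. MOB1A, which activates the LATS kinases of the Hippo pathway, stood at 121, 113 and 114 TPM in U87, at 56.1, 48.5 and 72.1 TPM in GSCs and at 64.0, 54.8 and 62.6 TPM in Diff. Both irradiated lines lay below U87 with no overlap, and overlapped each other. DOK1, a docking protein of tyrosine kinase signaling, differed from U87 by -0.75 in Diff and -0.77 in GSCs, and RTKN by -0.66 and -0.70. None of the 4 was called between Diff and GSCs.

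**Figure D3:**
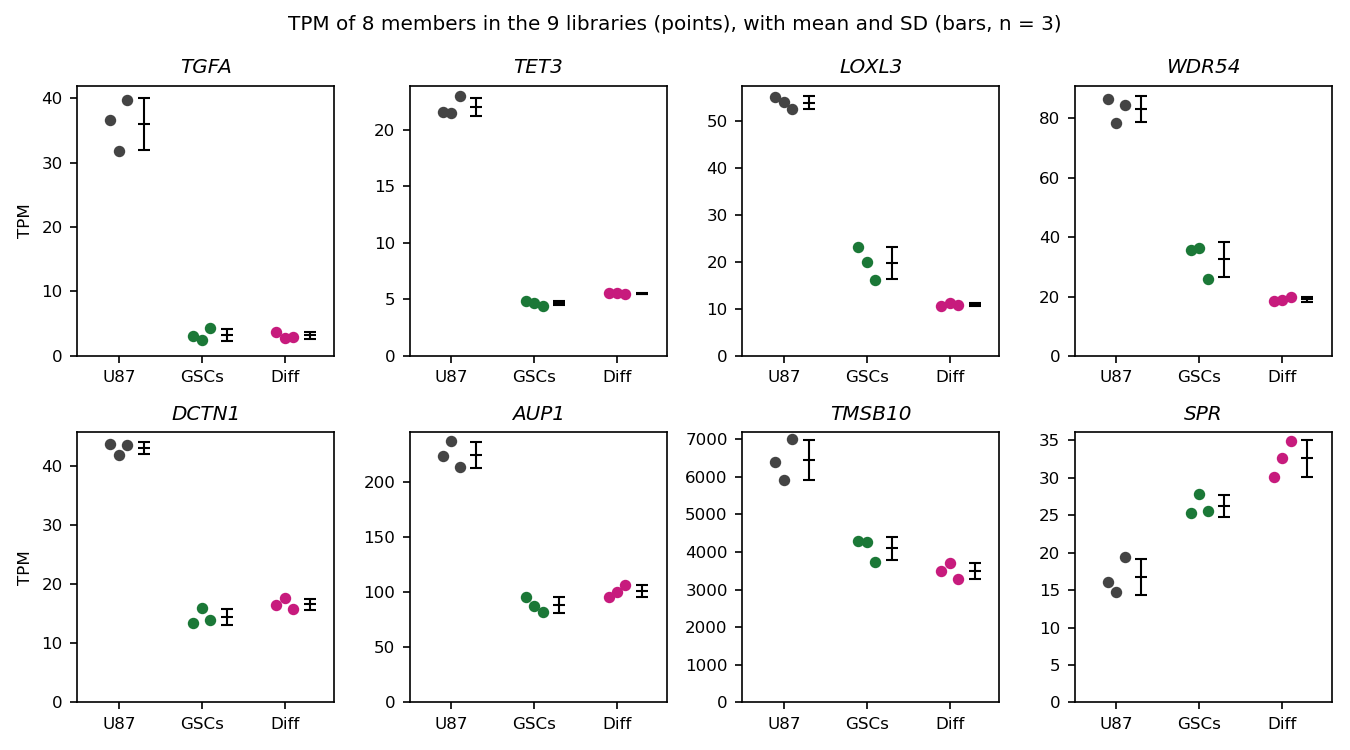
TPM of TGFA, TET3, LOXL3, WDR54, DCTN1, AUP1, TMSB10 and SPR in each library of U87, GSCs and Diff (points), with the mean and SD of the 3 libraries (bars); each axis starts at 0. SPR is highest in Diff at 32.6 TPM and lowest in U87 at 16.7 TPM, and the other 7 genes are highest in all 3 U87 libraries.

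Of the members that act in transcription, chromatin and replication, all 7 over 1 TPM averaged below U87 in both lines. TET3 stood at 21.6, 21.5 and 23.0 TPM in U87, at 4.85, 4.71 and 4.45 TPM in GSCs and at 5.55, 5.54 and 5.47 TPM in Diff. U87 lay above both lines, and the Diff libraries all lay slightly above the GSCs libraries, a difference of 0.20 ± 0.075 (SE) with an adjusted p of 0.0677 by limma, which passed the threshold under 3 other scalings (adjusted p from 0.0132 to 0.0395) and in limma without a trend (0.0488). POLE4, an accessory subunit of the replicative DNA polymerase epsilon, stood at 30.6, 26.1 and 30.3 TPM in U87, at 10.8, 13.5 and 12.1 TPM in GSCs and at 19.7, 18.4 and 19.2 TPM in Diff. The 3 lines did not overlap, with Diff between the others, and POLE4 was higher in Diff than in GSCs by 0.62 ± 0.094 (SE; adjusted p = 0.00117, limma).

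MXD1, which pairs with MAX and opposes MYC, differed from U87 by -0.82 in Diff and -0.80 in GSCs. PCGF1, a subunit of the polycomb complex PRC1.1, differed by -0.68 and -0.46, and SMYD5, a protein lysine methyltransferase, by -0.56 and -0.32. ZNF638, a zinc finger protein that binds nucleic acids, differed by -0.66 and -0.59. INO80B, a subunit of the INO80 chromatin remodeler, had a mean of 0.866 TPM, just under the threshold, while VAMP8, at 1.30 TPM, was the lowest member above it. INO80B also shares 72.0% of its exonic bases with a read-through gene on the same strand, so its own level is uncertain.

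Members in RNA processing and translation were fewer. TPRKB, part of the KEOPS complex that modifies transfer RNA, stood at 18.7, 16.2 and 20.4 TPM in U87, at 7.68, 5.87 and 12.3 TPM in GSCs and at 9.85, 9.54 and 10.6 TPM in Diff. The GSCs libraries spread widely but stayed below U87, as did those of Diff. DUSP11, an RNA phosphatase, differed from U87 by -0.66 in Diff and -0.47 in GSCs. MPHOSPH10, which works in ribosomal RNA processing, stood at 7.90, 7.34 and 7.61 TPM in U87, at 6.05, 6.71 and 8.44 TPM in GSCs and at 9.88, 8.50 and 9.67 TPM in Diff. GSCs overlapped U87, and Diff lay above both. PAIP2B, an inhibitor of the poly(A) binding protein, was at most 0.740 TPM in any library.

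Of the mitochondrial members, those of the middle over 1 TPM stood below U87 in both lines. DGUOK, which phosphorylates purine deoxynucleosides in mitochondria, stood at 64.5, 66.1 and 73.5 TPM in U87, at 40.3, 38.6 and 33.9 TPM in GSCs and at 33.7, 37.6 and 34.7 TPM in Diff. Both lines lay below U87 and overlapped each other. SFXN5, a mitochondrial carrier of the sideroflexin family, differed from U87 by -0.98 in Diff and -1.06 in GSCs, MRPL19, a protein of the large mitochondrial ribosomal subunit, by -0.99 and -0.86, and HTRA2, a serine protease, by -0.52 and -0.40. HTRA2 overlaps other genes on the opposite strand over 36.9% of its exonic bases, and without a stated strand setting those reads cannot be told apart. MRPL53 was listed at 0 in all 9 libraries, and 45.2% of its exonic bases are shared with CCDC142 on the same strand.

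BOLA3, which acts in the assembly of iron-sulfur proteins, stood at 5.55, 5.30 and 5.94 TPM in U87, at 2.22, 1.45 and 1.14 TPM in GSCs and at 2.16, 3.11 and 3.55 TPM in Diff. Both lines lay below U87, and the lowest Diff library lay under the highest GSCs library. FAM136A, a small mitochondrial protein of the distal end, stood at 40.0, 42.3 and 38.0 TPM in U87, at 24.99, 23.6 and 28.6 TPM in GSCs and at 40.2, 40.1 and 40.3 TPM in Diff. GSCs alone lay below U87, and Diff lay within its range. SUCLG1, a subunit of succinyl-CoA ligase, had the same order of groups, at 37.8, 37.7 and 39.5 TPM in U87, 27.3, 24.9 and 29.0 TPM in GSCs and 39.5, 37.7 and 41.0 TPM in Diff. MCEE, methylmalonyl-CoA epimerase, had the highest levels in GSCs, at 16.9, 12.5 and 13.8 TPM, beside 8.55, 8.35 and 8.65 TPM in U87 and 9.87, 8.07 and 7.89 TPM in Diff. MCEE was thus higher in GSCs than in either other line, which overlapped.

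Metabolic and modifying enzymes included several members above U87. SPR, sepiapterin reductase, which completes the synthesis of tetrahydrobiopterin, stood at 16.1, 14.7 and 19.4 TPM in U87, at 25.3, 27.9 and 25.6 TPM in GSCs and at 30.1, 32.7 and 35.0 TPM in Diff. It was the only member of the middle over 1 TPM that stood above U87, with no overlap in either line. DYSF, under 1 TPM and only listed, also lay above U87 in both lines. RETSAT, which saturates retinol, averaged higher in both lines, with a difference from U87 of 0.32 in Diff and 0.74 in GSCs, and NAGK, N-acetylglucosamine kinase, differed by 0.25 and 0.40. MAT2A, which makes S-adenosylmethionine, differed by -0.07 and 0.07, and GGCX, the vitamin K-dependent carboxylase, by -0.26 and 0.16.

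LOXL3, an enzyme that cross-links collagen and elastin, stood at 55.3, 54.0 and 52.7 TPM in U87, at 23.3, 19.9 and 16.2 TPM in GSCs and at 10.6, 11.2 and 10.9 TPM in Diff. The 3 lines did not overlap, and Diff was lowest. MOGS, the glucosidase that starts trimming of N-glycans in the endoplasmic reticulum, showed the same order at 48.8, 50.9 and 48.3 TPM in U87, 34.8, 35.7 and 30.8 TPM in GSCs and 26.4, 26.8 and 28.6 TPM in Diff. LOXL3 overlaps genes of the opposite strand over 19.3% of its exonic bases.

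Members in vesicle traffic and membranes lay in all 3 segments of the stretch. AUP1, a protein of lipid droplets and of the degradation of proteins from the endoplasmic reticulum, stood at 224, 238 and 214 TPM in U87, at 96.3, 87.7 and 82.1 TPM in GSCs and at 95.8, 101 and 107 TPM in Diff. Both lines lay far below U87 and overlapped each other. RAB11FIP5, an effector of the recycling endosome GTPase RAB11, differed from U87 by -0.98 in Diff and -0.89 in GSCs, and EXOC6B, a subunit of the exocyst, by -0.52 and -0.45. TGOLN2 of the trans-Golgi network differed by 0.04 and 0.09, ELMOD3, which activates the GTPase function of ARL proteins, by -0.01 in GSCs and close to 0 in Diff, and TMEM150A, a membrane protein, by 0.77 and 0.75. VAMP8, a SNARE of late endosomes, differed by -0.33 and -0.02. DYSF, a protein of membrane repair, was at most 0.473 TPM in any library.

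TEX261, a membrane protein of the early secretory pathway, stood at 107, 109 and 107 TPM in U87, at 59.9, 53.9 and 61.6 TPM in GSCs and at 104, 103 and 108 TPM in Diff. GSCs alone lay below, and Diff overlapped U87. VAMP5, a SNARE of the plasma membrane, stood at 123, 114 and 124 TPM in U87, at 115, 109 and 86.4 TPM in GSCs and at 171, 158 and 140 TPM in Diff. Diff lay above both others. TEX261 shares 15.6% of its exonic bases with another gene on the same strand.

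Among genes of actin, tubulin and protein folding, TMSB10, which binds actin monomers, was the most abundant member at 6400, 5923 and 6989 TPM in U87. It stood at 4285, 4252 and 3740 TPM in GSCs and at 3495, 3703 and 3270 TPM in Diff. All libraries of both lines lay below U87, and all Diff libraries lay below all GSCs libraries, a difference of -0.23 that was not called (adjusted p = 0.0936, limma). Under quantile normalization it was -0.54 with an adjusted p of 0.000511, and without GSCs replicate 3 it was -0.29 with 0.0430. The same normalization moved the difference of TMSB10 from U87 from -0.88 to -0.55 in Diff and from -0.65 to -0.01 in GSCs, so that its lower level in GSCs depends on the scaling.

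DCTN1, the largest subunit of dynactin, stood at 43.8, 42.0 and 43.6 TPM in U87, at 13.5, 15.9 and 14.0 TPM in GSCs and at 16.5, 17.6 and 15.8 TPM in Diff. CCT7, a subunit of the cytosolic chaperonin that folds actin and tubulin, stood at 118, 95.0 and 118 TPM in U87, at 37.8, 42.8 and 43.2 TPM in GSCs and at 48.0, 53.2 and 53.0 TPM in Diff. For both genes U87 lay above both irradiated lines. ALMS1, a centrosome protein, differed from U87 by -0.79 in Diff and -0.55 in GSCs, and CAPG, which caps actin filaments, by 0.17 and 0.06. ACTG2, a smooth muscle actin, had 0.752, 1.32 and 1.06 TPM in U87 and at most 0.172 TPM in any other library.

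The 3 members of the ubiquitin pathway stood below U87 with no overlap. STAMBP, a deubiquitinating enzyme of endosomes, differed from U87 by -1.06 in Diff and -0.80 in GSCs. The ubiquitin ligases KCMF1 and RNF181 differed by -0.44 and -0.39, and by -0.41 and -0.37. Of the members with no role assigned here, WDR54 stood at 86.7, 78.3 and 84.4 TPM in U87, at 35.6, 36.2 and 25.7 TPM in GSCs and at 18.5, 18.8 and 20.01 TPM in Diff, with Diff lowest and no overlap. TTC31 differed from U87 by -1.11 and -1.08, EVA1A by -1.05 and -1.13, WBP1 by -1.04 and -0.41, and TRABD2A, which was higher, by 0.36 and 0.22.

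Some members share a promoter region with a neighbour on the other strand. The starts of TTC31 and CCDC142 lie 83 bases apart, so that their windows share 182 bases. CCDC142, which is not on the list, averaged 11.1 TPM in U87, 6.50 TPM in GSCs and 4.48 TPM in Diff, and like TTC31 it averaged below U87 in both lines. The starts of RETSAT and ELMOD3, both members, lie 241 bases apart. RETSAT averaged above U87 in both lines while ELMOD3 had U87 libraries at 12.8, 11.1 and 11.4 TPM, GSCs libraries at 11.1, 12.7 and 11.2 TPM and Diff libraries at 12.6, 11.2 and 11.4 TPM, which overlapped throughout.

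The comparison of Diff with GSCs asked whether the members differed between the irradiated lines. The choice of members did not use this comparison directly. It did use the differences of both lines from U87 in the same libraries, so the comparison is not independent of the choice. Diff and GSCs differ in medium, serum and the picking of clones, which cannot be told apart. Over the 51 members the median difference was -0.04, beside -0.06 over all genes. By limma at an adjusted p under 0.05, 15 of 51 members were called, or 29.4%, beside 34.8% of all 22909 genes, so the share was near that of the background. Of these, 8 were higher and 7 lower in Diff, beside 15.0% higher and 19.8% lower of all genes. In the middle of the stretch 23.3% of 30 members were called, and no member differed by more than 1 on the log2 scale, beside 8.01% of all genes that were called with such a difference.

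TEX261 rose most in Diff, by 0.84 ± 0.057 (SE; adjusted p = 1.42e-05), followed by FAM136A with 0.63 ± 0.076 (adjusted p = 0.000357) and by POLE4, given above. VAMP5 rose by 0.60 ± 0.11 (adjusted p = 0.00363) and SUCLG1 by 0.53 ± 0.067 (adjusted p = 0.000461). In each of these 5 genes all 3 Diff libraries lay above all 3 GSCs libraries. BOLA3, MPHOSPH10 and CCT7 passed the threshold with less margin, at 0.60, 0.37 and 0.31 and adjusted p of 0.0387, 0.0429 and 0.0353. BOLA3 lost its call when any library but GSCs replicate 1 or Diff replicate 1 was left out (7 of 9 cases, adjusted p up to 0.128). MPHOSPH10 lost it without any library but GSCs replicate 3 (8 of 9, up to 0.134), and CCT7 without GSCs replicate 1 or 2 or Diff replicate 2 or 3 (4 of 9, up to 0.114).

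LOXL3 was lower in Diff than in GSCs by -0.79 ± 0.11 (SE; adjusted p = 0.000798, limma) and WDR54 by -0.72 ± 0.12 (adjusted p = 0.00198). MCEE differed by -0.68 ± 0.12 (adjusted p = 0.00302), RETSAT by -0.42 ± 0.083 (adjusted p = 0.00463) and GGCX by -0.41 ± 0.079 (adjusted p = 0.00392). MOGS, at -0.30, was called at an adjusted p of 0.00912 but not with median-ratio size factors, at 0.0568. WBP1, at -0.63 with an adjusted p of 0.0141, was not called without Diff replicate 2, at 0.0515, and 38.7% of its exonic bases are shared with a read-through gene. In all 7 genes every Diff library lay below every GSCs library.

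**Figure D4:**
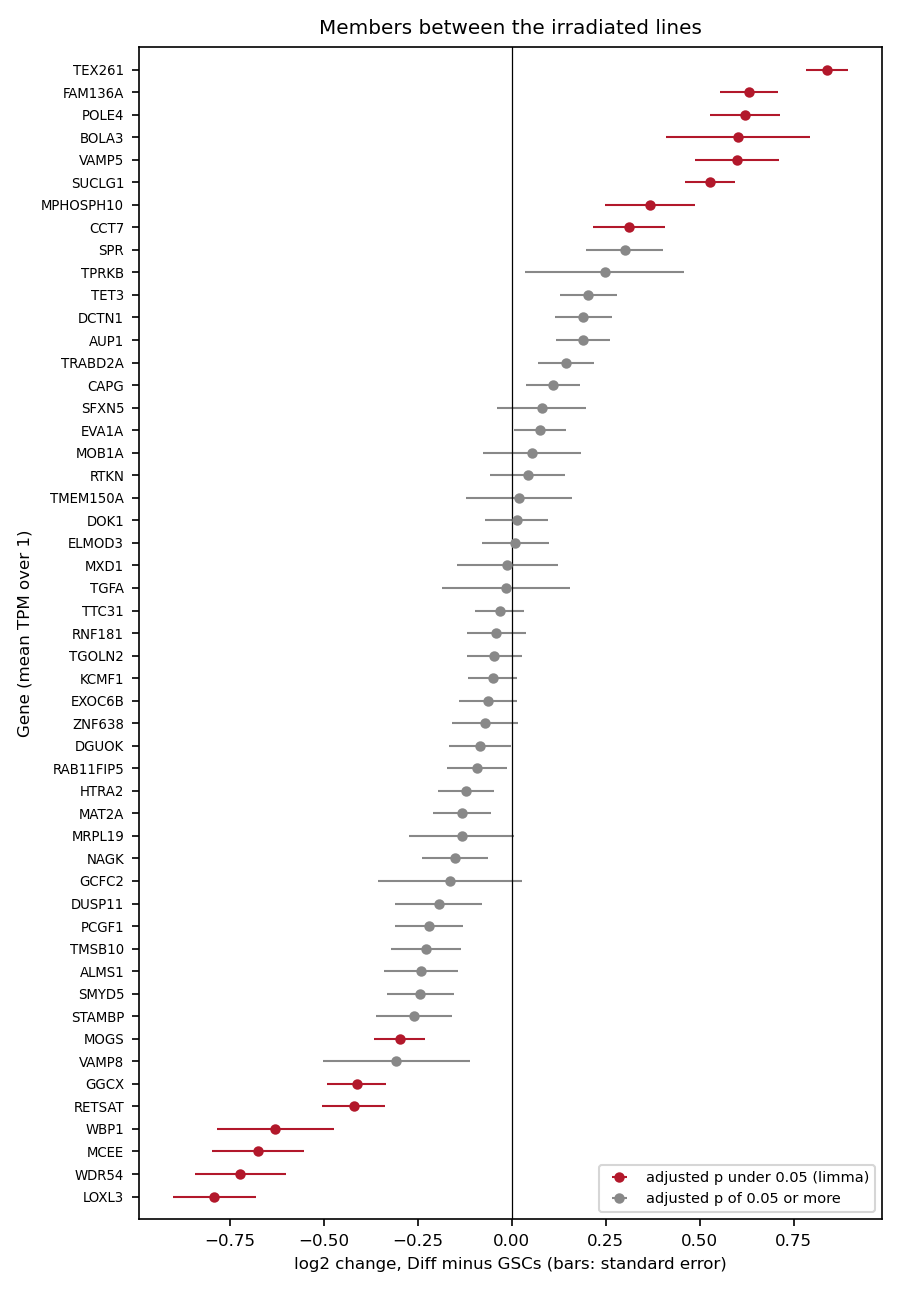
Difference of Diff from GSCs in log2(TPM + 1) for each of the 51 members (points) with its standard error (bars), in order of size; red points passed an adjusted p of 0.05 by limma over all genes. Values run from -0.79 for LOXL3 to 0.84 for TEX261, with 8 members called higher, 7 called lower and most near 0.

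The other 36 members were not called, which does not show that they were equal in the irradiated lines. SPR, at 0.30, missed the threshold with an adjusted p of 0.0505 and passed it without U87 replicate 2 (0.0385) or replicate 3 (0.0234) and under the 3 other scalings (0.0248 to 0.0473). DCTN1 passed it under the same 3 scalings (0.0298 to 0.0463), AUP1 without RN7SL1 and mitochondrial genes (0.0276) and TRABD2A under quantile normalization (0.0417). On leaving out 1 library calls appeared for AUP1 (without GSCs replicate 1, 0.0362), for DCTN1, DUSP11 and MAT2A (without GSCs replicate 2, 0.0242, 0.0434 and 0.0405), for TPRKB (without GSCs replicate 3, 0.0197) and for SMYD5 (without GSCs replicate 3 or Diff replicate 2, 0.0176 and 0.0445). The SE of a member's difference ranged from 0.057 for TEX261 to 0.21 for TPRKB.

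Many members work with gene products encoded elsewhere, and these were tested against U87 because the choice of members had not used them. The lists were, however, drawn up with earlier results of these data known, so their tests are not free of that knowledge. The lists held 194 genes in 29 complexes, families or pathways, of which 178 were tested off chromosome 2p, 5 were on 2p and 11 had a mean of 1 TPM or less. Diff against U87 called 80 of the 178, or 44.9% beside 39.4% of all genes, with 38 higher and 42 lower beside 18.9% and 20.5% of all genes. GSCs against U87 called 100, or 56.2% beside 48.6%, with 41 higher and 59 lower beside 25.3% and 23.3%. Diff against GSCs called 77, or 43.3% beside 34.8%, with 46 higher and 31 lower beside 15.0% and 19.8%. With a difference over 1 also required, these comparisons called 10, 9 and 9 partners, beside 12.3%, 17.1% and 8.01% of all genes. Median differences over these partners were -0.03, -0.09 and 0.08. Both comparisons with U87 share the U87 libraries. The lists hold mostly protein-coding genes, whereas all genes tested also include pseudogenes and small RNAs. The sets are thus unlike, and the gap between their shares cannot be read as a trait of the partners.

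**Figure D5:**
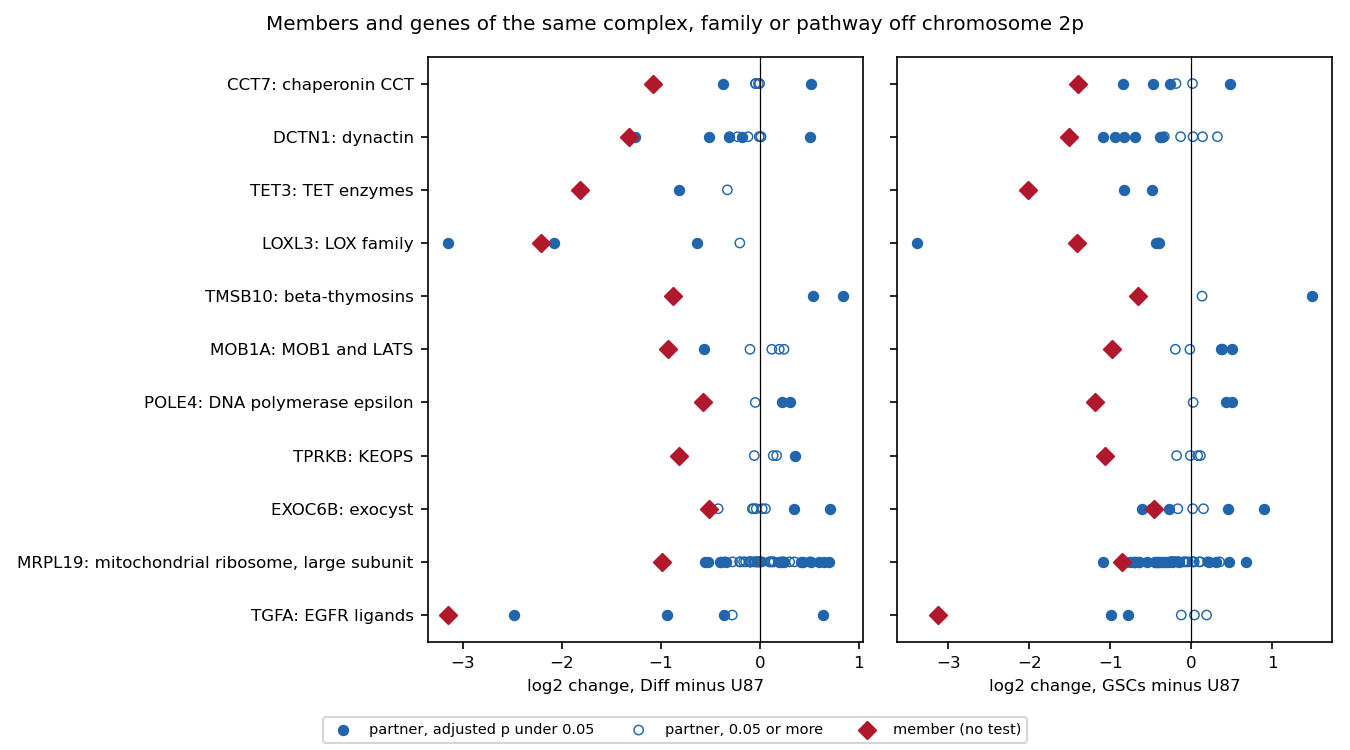
Difference from U87 in log2(TPM + 1) for Diff (left) and GSCs (right) of members (red diamonds, not tested) and of the genes listed with each off chromosome 2p (blue circles, filled where adjusted p was under 0.05 by limma). The member lies left of all its listed partners for CCT7, DCTN1, TET3, TMSB10, MOB1A, POLE4, TPRKB and TGFA in both panels, and LOXL2 lies left of LOXL3. Members were chosen on these contrasts and the partners were not, so nothing is read from their order. The lists drawn are a selection, and those of members above U87, such as SPR and NAGK, are not drawn.

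Of the 6 other chaperonin subunits tested off 2p, in Diff CCT6A rose by 0.52 (adjusted p = 0.00217, limma) and CCT5 fell by 0.37 (adjusted p = 0.00221), and 4 were not called. In GSCs CCT6A rose, and CCT2, CCT3 and CCT5 fell, the last by 0.84 (adjusted p = 1.14e-05, limma). The shares called were 33.3% in Diff and 66.7% in GSCs, beside 39.4% and 48.6% of all genes. CCT4, on 2p outside the stretch, averaged 51.2 TPM in U87, 56.5 TPM in GSCs and 51.7 TPM in Diff and was not called. Beside these, CCT7 averaged 110 TPM in U87, 41.2 TPM in GSCs and 51.4 TPM in Diff.

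Of 11 other dynactin genes, 1 rose and 4 fell in Diff, and 6 fell in GSCs. That is 45.5% and 54.5%, beside 39.4% and 48.6% of all genes called. DCTN6 fell by 1.26 in Diff and by 0.94 in GSCs, and CAPZB, which caps the dynactin filament, by 0.51 and 1.09. DCTN2 was not called in either line and averaged 42.4 TPM in U87, 38.6 TPM in GSCs and 42.2 TPM in Diff. For the exocyst, 2 of 8 rose in Diff, and 2 rose and 2 fell in GSCs, with EXOC4 higher by 0.71 and 0.90.

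TET2, the related cytosine dioxygenase, fell by 0.82 in Diff (adjusted p = 6.13e-05, limma) and by 0.83 in GSCs (adjusted p = 4.22e-05), and TET1 fell by 0.48 in GSCs and had -0.33 in Diff, where it was not called. In the polymerase epsilon list, POLE and POLE3 rose in Diff and POLE and POLE2 in GSCs, with POLE at 0.31 and 0.43. Of the KEOPS genes LAGE3 rose in Diff, by 0.35, and none of 4 was called in GSCs by limma, with 0 at an unadjusted p under 0.05. Of 8 other PRC1.1 genes none was called in Diff by limma, with 2 at an unadjusted p under 0.05. In GSCs 3 of them rose and 2 fell, or 62.5% beside 48.6% of all genes. In the MAX network MYC rose by 0.50 in Diff and by 0.94 in GSCs, and MXD3 fell by 0.66 and 0.86.

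In the lysyl oxidase family LOX, LOXL1 and LOXL2 fell in both lines and LOXL4 was not called in either. LOXL2 fell by 3.15 in Diff (adjusted p = 5.15e-07, limma) and by 3.39 in GSCs (adjusted p = 2.04e-07), from 345 TPM in U87 to 37.9 TPM and 32.4 TPM. LOX fell by 2.08 in Diff and by 0.43 in GSCs. Low values beside LOXL3 were thus also seen in family members off 2p. TMSB4X, the most abundant other beta-thymosin, rose by 0.54 in Diff (adjusted p = 0.000132) and had 0.13 in GSCs, opposite in sign to TMSB10.

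Among the EGFR ligands off 2p, EREG fell by 2.48 in Diff (adjusted p = 3.21e-06, limma) and had 0.04 in GSCs, at 87.5 TPM in U87, 91.0 TPM in GSCs and 14.8 TPM in Diff. HBEGF fell by 0.36 in Diff and by 1.00 in GSCs. EPGN fell in Diff and EGF in GSCs, and BTC rose in Diff. MOB1B, the close relative of MOB1A, was not called in either line, and LATS1 fell by 0.57 in Diff.

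Of 45 proteins of the large mitochondrial ribosomal subunit tested off 2p, 9 rose and 5 fell in Diff, and 4 rose and 19 fell in GSCs. These were 31.1% and 51.1% of the list, beside 39.4% and 48.6% of all genes called. SUCLG2, another subunit of succinyl-CoA ligase, rose by 0.86 in GSCs (adjusted p = 2.23e-05, limma) and had 0.10 in Diff, whereas SUCLG1 stood below U87 in GSCs. MMUT, the mutase after MCEE in propionate breakdown, rose by 0.58 in GSCs and had -0.02 in Diff. MAT1A, the liver form of methionine adenosyltransferase, rose by 2.81 in Diff and 3.15 in GSCs, from 0.0252 TPM in U87 to 6.21 TPM and 8.12 TPM, while MAT2B was not called in either line.

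In the synthesis of UDP-N-acetylglucosamine, to which NAGK supplies a salvage route, 2 of 6 genes off 2p rose and 4 fell in Diff, and GFPT2 fell by 1.31. Those that rose, AMDHD2 and GNE, act in the breakdown and further use of N-acetylglucosamine rather than in making the UDP sugar. Of the VAMP SNAREs, VAMP1, VAMP2 and VAMP4 fell in Diff, and VAMP3 and VAMP4 rose in GSCs. For tetrahydrobiopterin, PTS rose in Diff and GCH1 in GSCs, where QDPR, which recycles the cofactor, fell by 0.95. Of the other lists, the INO80 complex had 2 of 13 higher and 5 lower in Diff, and 3 higher and 5 lower in GSCs. That is 53.8% and 61.5%, beside 39.4% and 48.6% of all genes called. The cytoplasmic and smooth muscle actins ACTB and ACTA2 fell in GSCs, by 0.78 and 0.70, and were not called in Diff.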

How the data were processed

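The authors deposited log2(TPM + 1) values, in which TPM is corrected for gene length and scaled to 1000000 per library. The submitters' processing notes name FastQC 0.11.9, Trimmomatic 0.39, HISAT2 2.2.1, featureCounts 2.0.5, R 4.2.0 and GRCh38. The annotation, the strand setting and the treatment of multimapping reads are not given in the sources used here. From these values, genes with a mean of more than 1 TPM entered 1 linear model of the 3 lines with moderated variances that follow a trend (limma 3.58.1, R 4.3.3), with Benjamini-Hochberg adjustment over all 22909 genes, after the fit was tested on simulated data. Differences are on the log2(TPM + 1) scale and understate changes of low genes. Of 60606 genes, 53498 matched GENCODE 29, which gave coordinates and exon overlaps, and promoters came from RefSeq. The members and lists were chosen with earlier results of these data known. The genes named were all members, the listed partners, genes within and beside the stretch, and cell type markers. Tables were made with Python 3.11.15 and pandas 2.3.3. Alternatives were another pseudocount, other filters, scalings, thresholds and models, a replicate block, and leaving out each library.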

Additional observations from a re-analysis of the deposited data

Results flagged for a closer look

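In 5 members the difference from U87 had opposite signs in Diff and GSCs, and their difference between Diff and GSCs passed the threshold by limma. FAM136A was 0.63 higher in Diff than in GSCs, SUCLG1 0.53 higher, VAMP5 0.60 higher and MPHOSPH10 0.37 higher, each averaging above U87 in Diff and below it in GSCs. For FAM136A and SUCLG1 the difference of Diff from U87 was only 0.01 and 0.04, their Diff libraries overlapped U87, and for FAM136A it ranged from -0.03 to 0.04 on leaving out 1 library, so the sign in Diff is not established. VAMP5 and MPHOSPH10 overlapped U87 in GSCs. GGCX differed by -0.41, averaging below U87 in Diff and above it in GSCs, where it overlapped U87. The call of MPHOSPH10 was lost on leaving out all libraries but GSCs replicate 3 in turn, with 0.28 without GSCs replicate 1 as its lowest value.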

How the results depend on the processing

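The median difference of members from U87 in Diff, -0.66, was -0.71 with a pseudocount of 0.1, -0.63 with quantile normalization, -0.62 with median-ratio size factors, -0.64 without RN7SL1 and mitochondrial genes, and -0.69 to -0.64 on leaving out 1 library. That between Diff and GSCs, -0.04, was 0.0126 with quantile normalization, 0.0237 with median-ratio size factors and 0.0208 without RN7SL1 and mitochondrial genes. The medians of the other genes of the stretch were -0.62 in Diff and -0.53 in GSCs with a pseudocount of 0.1, and -0.24 and -0.13 with no filter, which adds genes near 0. The 8 members called higher in Diff than in GSCs numbered 5 to 8 on leaving out 1 library (5 without Diff replicate 2 or 3), 12 with quantile normalization, 11 with median-ratio size factors, 12 without RN7SL1 and mitochondrial genes, 5 at an adjusted p under 0.01, and 0 with a change over 1 also required. TMSB10 in GSCs against U87, -0.65, was -0.01 with quantile normalization. The 7 called lower numbered 0 with a change over 1. Partners called with a change over 1 numbered 10 (Diff against U87), 9 (GSCs against U87) and 9 (Diff against GSCs), and Diff against U87 had 52 at an adjusted p under 0.01. No result named here reversed sign past its threshold.

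Replicate numbers carried no shared deviation (correlations of same-numbered libraries from -0.0416 to 0.0489), so they share only a number. With a replicate block, 5 members were called higher. Counting error and depth cannot be had from TPM, so precision rests on 3 libraries a line.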
